A study of Arabidopsis thaliana with 2 samples.

Results

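Leaf RNA-seq of Arabidopsis thaliana was examined for the 33 genes of mevalonate and sterol synthesis, out of 33557 loci in the deposited table. They were chosen by locus identifier from knowledge of the pathway, from the thiolase AACT2 to the sterol desaturase CYP710A1, and all 33 were found. The choice was made with earlier results of these data known. The leaves came from plants of ecotype Columbia, 2 weeks old and grown with a 16-h photoperiod at 23 °C, with 1 library from wild type and 1 from a homozygous T-DNA insertion line of AtCLB, Atclb1-1, labelled loss of function and hereafter called the mutant library. The sources used here give neither the number of plants per library nor the hour of harvest. With 1 library per genotype there is no replicate error and no test, so each difference describes these libraries, and fewer cells of a type cannot be told apart from less RNA per cell.

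Plants make the isoprenoid precursor isopentenyl diphosphate by a mevalonate pathway outside the plastid and by a separate pathway inside it. The mevalonate route feeds farnesyl diphosphate, squalene and oxidosqualene, which cycloartenol synthase closes into the first sterol ring system. Demethylations, an isomerisation, reductions and side-chain methylations then give campesterol, sitosterol and stigmasterol, the sterols of plant membranes, and campesterol is also the precursor of brassinosteroid hormones. HMG-CoA reductase is known as the main control point of the mevalonate part, and squalene epoxidase as a further one.

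Upstream sequence is shown for 3 pairs of genes that encode the same enzyme and whose levels differed in unlike ways between the libraries. Each line gives the 250 bases before the annotated start of the gene, 5′ to 3′ on the gene's strand, from the RefSeq TAIR10.1 genome. Capitals mark matches, on either strand, to the evening element AAAATATCT, the CCA1-binding site AAAAATCT or the G-box CACGTG. The first is a motif of evening-phased clock targets, the second is bound by the dawn clock protein CCA1 and the third by light and jasmonate regulators.
FPS1, chr5:19344860-19345109, plus strand: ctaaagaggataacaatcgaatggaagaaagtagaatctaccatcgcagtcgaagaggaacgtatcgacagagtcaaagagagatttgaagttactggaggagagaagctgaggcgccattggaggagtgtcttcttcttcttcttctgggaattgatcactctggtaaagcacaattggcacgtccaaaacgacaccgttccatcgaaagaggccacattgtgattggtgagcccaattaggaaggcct
FPS2, chr4:9650913-9651162, minus strand: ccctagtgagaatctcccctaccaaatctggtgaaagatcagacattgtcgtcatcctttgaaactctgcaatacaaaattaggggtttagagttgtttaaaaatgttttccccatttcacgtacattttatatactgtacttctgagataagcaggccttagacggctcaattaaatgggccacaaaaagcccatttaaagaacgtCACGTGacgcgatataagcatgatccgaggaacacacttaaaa
SQE2, chr2:9726385-9726634, minus strand: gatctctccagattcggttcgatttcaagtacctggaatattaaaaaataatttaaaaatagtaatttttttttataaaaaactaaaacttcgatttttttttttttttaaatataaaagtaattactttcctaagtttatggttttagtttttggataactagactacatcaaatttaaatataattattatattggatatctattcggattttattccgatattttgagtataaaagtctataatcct
SQE3, chr4:17743488-17743737, plus strand: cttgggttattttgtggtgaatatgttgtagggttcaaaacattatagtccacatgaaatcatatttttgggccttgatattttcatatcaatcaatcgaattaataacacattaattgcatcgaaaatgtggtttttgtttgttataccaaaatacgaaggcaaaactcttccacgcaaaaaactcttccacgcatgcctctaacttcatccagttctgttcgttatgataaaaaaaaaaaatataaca
SMO2-1, chr1:2277305-2277554, plus strand: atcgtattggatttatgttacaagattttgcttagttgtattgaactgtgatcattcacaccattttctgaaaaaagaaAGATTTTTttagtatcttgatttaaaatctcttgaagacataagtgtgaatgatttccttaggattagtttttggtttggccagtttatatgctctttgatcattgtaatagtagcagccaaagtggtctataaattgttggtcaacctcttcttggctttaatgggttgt
SMO2-2, chr2:12612938-12613187, minus strand: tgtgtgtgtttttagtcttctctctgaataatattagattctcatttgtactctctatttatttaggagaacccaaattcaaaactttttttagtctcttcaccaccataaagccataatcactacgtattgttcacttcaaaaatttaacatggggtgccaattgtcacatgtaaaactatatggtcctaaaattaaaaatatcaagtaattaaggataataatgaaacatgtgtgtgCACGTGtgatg
FPS2 has a G-box 43 to 38 bases before its start, and the window of FPS1 has none of the motifs. FPS1 overlaps AT5G47760 on the opposite strand, so its window could hold sequence of that gene, whereas FPS2 overlaps no other gene. SMO2-1 has a CCA1-binding site on the other strand, 171 to 164 bases before its start, and SMO2-2 a G-box 11 to 6 bases before it. Neither SQE2 nor SQE3 has a match. Among the 32 members with a window, the evening element was in 0, the CCA1-binding site in 1 and the G-box in 3, the last being DWF5, with 2 copies, FPS2 and SMO2-2. Of 27443 protein-coding genes 2.36%, 6.69% and 6.49% have these motifs in the same window. Among tested loci at least 2-fold lower in the mutant library, 6.53% have the evening element. A match describes letters only.

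The target of the insertion, AtCLB (AT3G61050), a gene for a lipid-binding protein with a C2 domain, stood at 39.2 FPKM in wild type against 13.5 FPKM in the mutant library, 34.5% of the wild type level. FPKM are fragments per kilobase of transcript, scaled to the mapped total of the library, so levels of different genes can be set side by side. Steps of the lowest values put the mutant library at 1.21 times the depth of wild type. The 5 leaf mesophyll markers were abundant in both libraries, but 3 were at least 2-fold lower in the mutant library, with a median log2 difference of -1.15: RBCS1A was at 19812 and 8957 FPKM, LHCB6 at 5253 and 1802 FPKM, and CA1 at 2870 and 889 FPKM, in turn. RCA was higher, at 3643 and 6038 FPKM, within 2-fold. The 3 seed markers were listed at 0 in both libraries. The 3 root markers were listed at 0 in wild type, and 1 of them, PYK10, was at 1.31 FPKM in the mutant library. Dawn clock genes were far higher in the mutant library, CCA1 at 7.39 and 162 FPKM, and evening genes far lower, ELF4 at 343 and 4.95 FPKM. The 4 cell division markers were all lower, 3 of them past the filter at 1 FPKM, with a median log2 difference of -1.12 (-1.63 to -0.48 over the pseudocount, scaling and trend alternatives). Among 5 markers of guard cells and the stomatal lineage, MYB60, EPF1 and TMM were at least 2-fold lower. KAT1 was higher, at 12.8 and 32.4 FPKM, and FAMA lay within 2-fold. EPF1 and TMM mark the lineage before guard cells form. Of 3 epidermis markers 2 were lower, PDF1 at 4.39 FPKM in wild type against listed at 0 in the mutant library. The 4 phloem markers lay within 2-fold, and 1 of 3 xylem markers past the filter was lower. Of 2 such flower markers AG lay within 2-fold. PI was higher, at 0.0635 and 1.36 FPKM, but it passed the filter only through its mutant value. The part of any of these in the values of sterol genes was not tested.

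The 33 genes chosen for mevalonate and sterol synthesis were more often lower than higher in the mutant library. Differences are log2((mutant FPKM + 1)/(wild type FPKM + 1)), a scale that understates those of low genes, and a gene is called higher or lower from 2-fold on that scale. Of the 33 genes 8 were at least 2-fold lower: MVK, MVD1, MVD2, FPS2, SQE2, SMO2-1, CPI1 and DWF1. The genes at least 2-fold higher were 3, namely SQE3, SMT2 and CYP710A1. Of all 18171 loci that reached 1 FPKM in at least 1 library, 10.8% were lower and 17.2% higher by the same rule, against 24.2% and 9.09% of the 33. The median difference was -0.28 for the 33 and 0.21 for all tested loci, and 19 of the 33 lay below 0. With a pseudocount of 5 the counts were 4 lower (5.82% of all loci) and 2 higher (9.76%), and at 4-fold 1 lower (2.64%) and 0 higher (5.29%). All 33 passed the filter, but CYP710A1 only through its mutant value, so that its difference follows in part from the filter. The excess of lower genes is limited to these 33. Of 11 other pathway genes past the filter, given below, 4 (36.4%) were higher and 0 lower. Among those 4, LAS1 and CYP710A2 passed only through their mutant values.

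**Figure D1:**
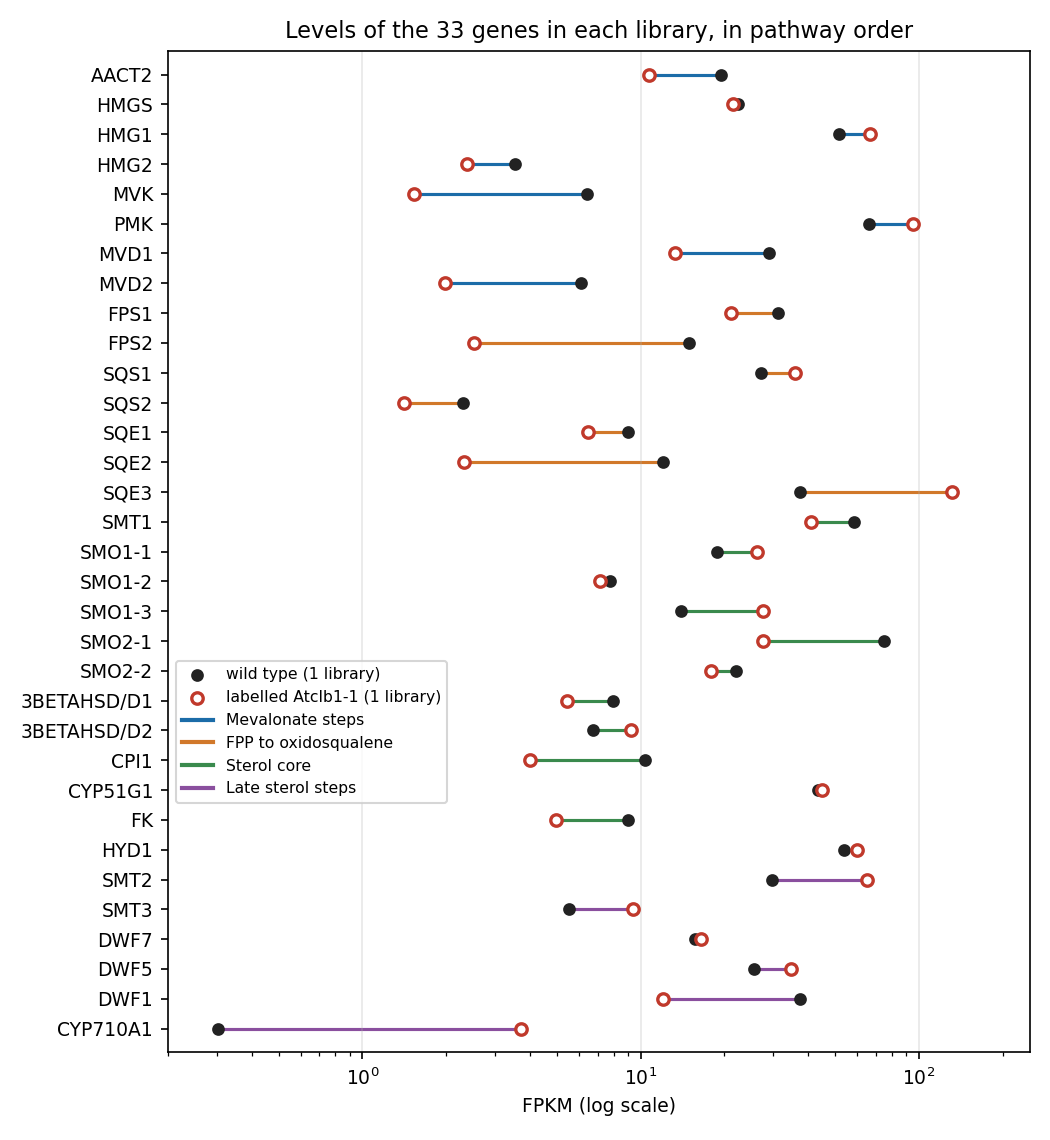
FPKM of each of the 33 genes (log axis) in wild type (filled) and in the mutant library (open), coloured by stage, with 1 library each. Genes are in rough pathway order, with the first and second C-4 oxidases (SMO1 and SMO2) side by side. SQE3 is the highest gene of the mutant library at 131 FPKM, SMO2-1 that of wild type at 74.9 FPKM, and CYP710A1 the lowest of wild type at 0.302 FPKM.

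Levels of the genes spanned a wide range. In wild type they ranged from 0.302 to 74.9 FPKM with a median of 18.8, against a median of 11.0 over all tested loci. In the mutant library they ranged from 1.41 to 131 FPKM with a median of 13.3, against 13.4 over all tested loci. The highest in wild type were SMO2-1, PMK (66.2 FPKM) and SMT1 (58.3 FPKM). In the mutant library SQE3 stood first, followed by PMK (95.2 FPKM), HMG1 (66.8 FPKM) and SMT2 (64.8 FPKM). The summed level of the 33 was 779 FPKM in wild type against 831 FPKM in the mutant library. The sum was thus slightly higher, although 19 of the 33 genes had a log2 difference below 0. Single abundant genes weigh in that sum: SQE3 alone went from 37.3 to 131 FPKM.

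**Figure D2:**
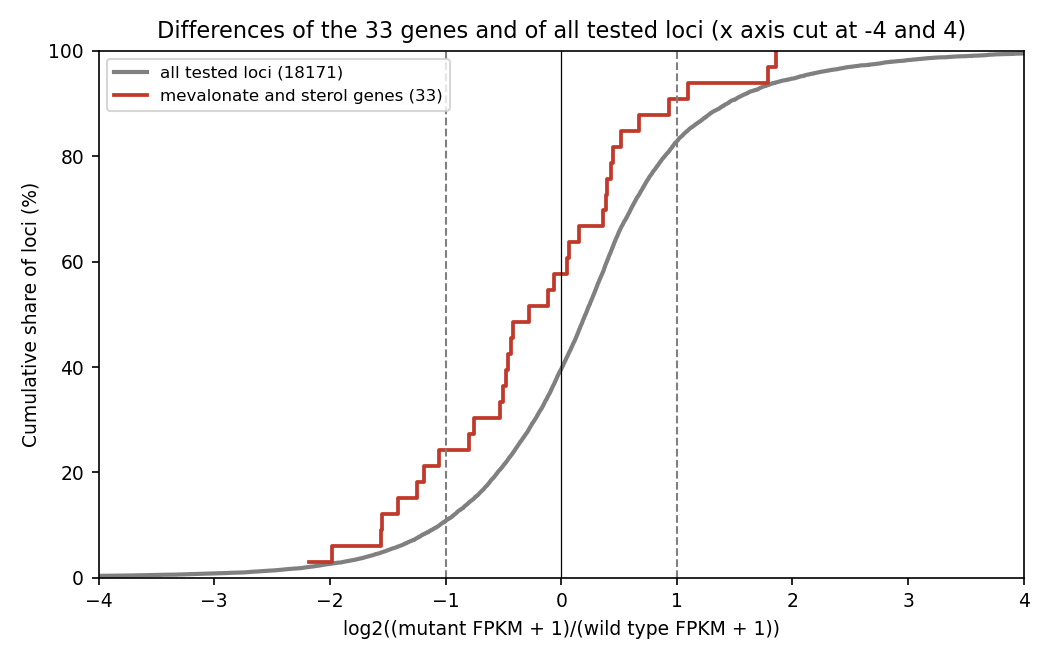
Cumulative share of loci (%) against the log2 difference, for the 33 genes (red, stepped) and all 18171 tested loci (grey), with dashed lines at 2-fold. The red curve lies to the left of the grey one through most of the range, with medians of -0.28 and 0.21.

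In the mevalonate steps 3 of 8 genes (37.5%) were at least 2-fold lower and none higher, against 10.8% and 17.2% of all tested loci. The median difference of the 8 was -0.61. The lower genes encode kinase and decarboxylase steps near the end of the route. MVK, which encodes mevalonate kinase (AT5G27450; TAIR10.1 chromosome 5, 9690428 to 9693289, plus strand), stood at 6.42 FPKM in wild type against 1.53 FPKM in the mutant library, 4.20-fold lower, a log2 difference of -1.55. MVD1 and MVD2 both encode mevalonate diphosphate decarboxylase, the last enzyme before isopentenyl diphosphate. MVD1 was at 28.8 FPKM in wild type against 13.3 FPKM in the mutant library, and MVD2 at 6.10 and 1.98 FPKM. Their sum was 34.9 FPKM in wild type against 15.2 FPKM in the mutant library, and MVD1 supplied 82.5% of it in wild type and 87.0% in the mutant library. The coding sequences of the pair are identical at 87.5% of aligned bases. Their longest identical run is 41 nt, so reads could in part be divided between them.

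Earlier steps of the route lay closer together. AACT2, the cytosolic thiolase that joins acetyl-CoA units, was at 19.5 FPKM in wild type against 10.7 FPKM in the mutant library. HMGS, the synthase of HMG-CoA, was at 22.3 and 21.4 FPKM. HMG1, the main reductase gene, was at 51.6 and 66.8 FPKM, and HMG2, its low partner, at 3.53 and 2.37 FPKM. HMG1 made up 93.6% and 96.6% of the reductase transcripts, so that step, 55.2 and 69.2 FPKM in sum, was carried by the gene that was not lower. PMK, the phosphomevalonate kinase between MVK and the decarboxylases, was at 66.2 and 95.2 FPKM. The genes on either side of PMK in the pathway were thus at least 2-fold lower and PMK itself was not. The sum over the 8 genes was 204 FPKM in wild type against 213 FPKM in the mutant library, since the abundant HMG1 and PMK were the higher ones, although both differences turned slightly negative, at -0.01 and -0.11, after correction for transcript length and GC content.

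**Figure D3:**
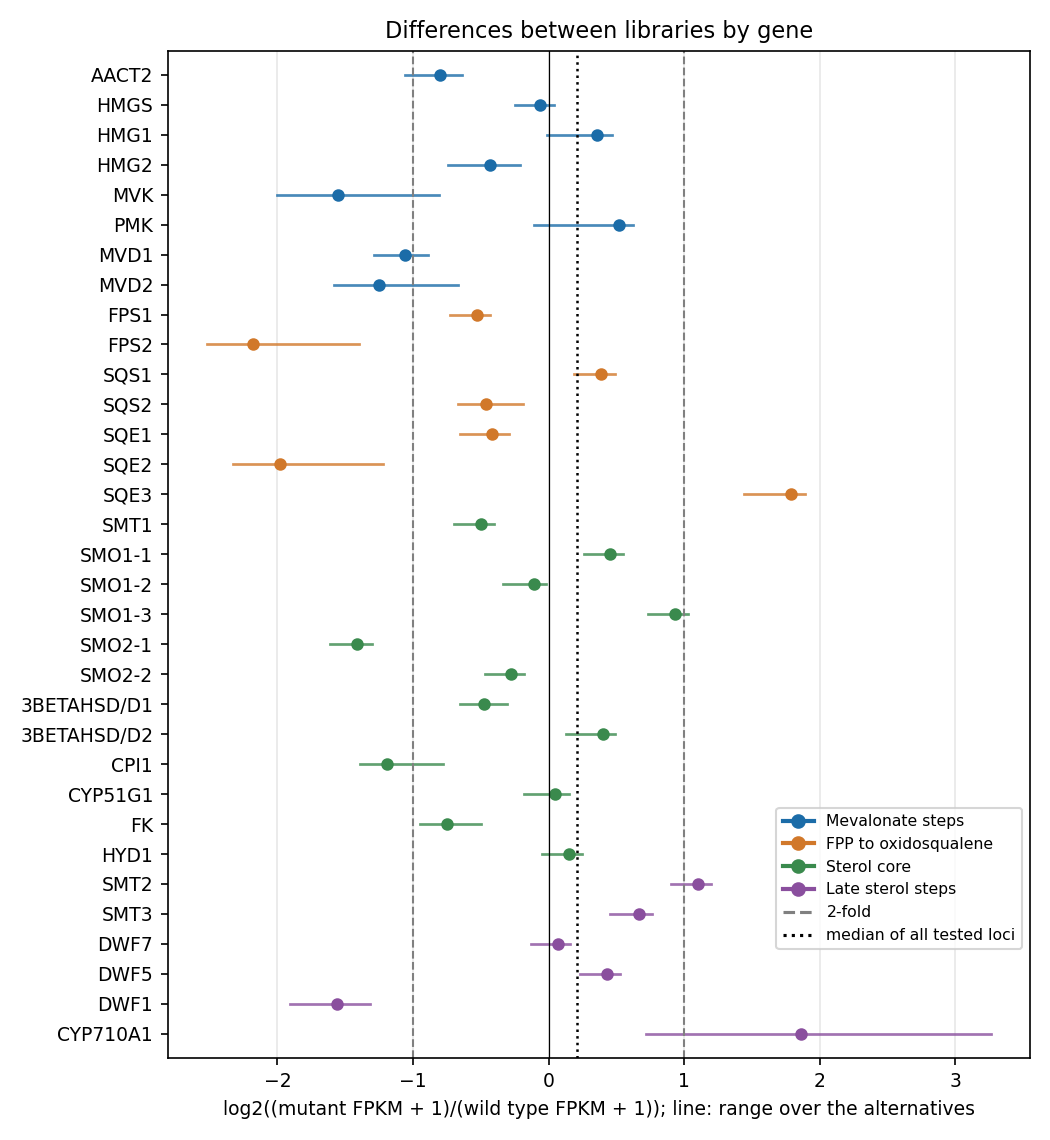
Log2 difference of each gene between the mutant library and wild type (points) with the lowest and highest value over the main setting and its alternatives (lines), dashed lines at 2-fold and a dotted line at the median of all tested loci, 0.21. FPS2, SQE2, SQE3, SMO2-1 and DWF1 stay outside the dashed lines over their whole range.

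Between farnesyl diphosphate and oxidosqualene, genes for the same enzyme differed to unlike degrees, and only the epoxidases had genes called in opposite directions. FPS2, a farnesyl diphosphate synthase gene (AT4G17190; TAIR10.1 chromosome 4, 9648467 to 9650912, minus strand), was at 14.9 FPKM in wild type against 2.51 FPKM in the mutant library, 5.93-fold lower. Its log2 difference of -2.18 was the lowest of the 33, and 2.07% of all tested loci had one as low. FPS1, which also gives a mitochondrial form of the enzyme, was at 31.1 and 21.2 FPKM. FPS2 made up 32.4% of the farnesyl diphosphate synthase transcripts in wild type and 10.6% in the mutant library. The coding sequences of the pair are identical at 87.3% of aligned bases, and their longest identical run is 33 nt, so reads could in part be divided between them.

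SQS1, the gene of the working squalene synthase, was at 27.0 FPKM in wild type against 35.8 FPKM in the mutant library. Its tandem neighbour SQS2, whose protein lacked squalene synthase activity when assayed, was at 2.30 and 1.41 FPKM. Both differed by less than 2-fold.

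The squalene epoxidases showed the widest split within a step. SQE3 (AT4G37760; TAIR10.1 chromosome 4, 17743738 to 17746697, plus strand) was 3.53-fold higher in the mutant library, whereas SQE2 (AT2G22830; TAIR10.1 chromosome 2, 9723615 to 9726384, minus strand) was at 12.0 FPKM in wild type against 2.31 FPKM in the mutant library, 5.22-fold lower. Their log2 differences were 1.79 and -1.98, and 6.49% of tested loci were as high as SQE3 and 2.70% as low as SQE2. SQE1, the epoxidase gene with a strong mutant phenotype in roots and seeds, was at 9.03 and 6.49 FPKM. SQE3 made up 63.9% of the summed epoxidase level of 58.4 FPKM in wild type against 93.7% of 140 FPKM in the mutant library. SQE2 went from 20.6% to 1.64% and SQE1 from 15.5% to 4.63%. Coding sequences of SQE2 and SQE3 are identical at 78.6% of aligned bases. Their longest identical run is 35 nt, so reads could in part be divided between them.

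**Figure D4:**
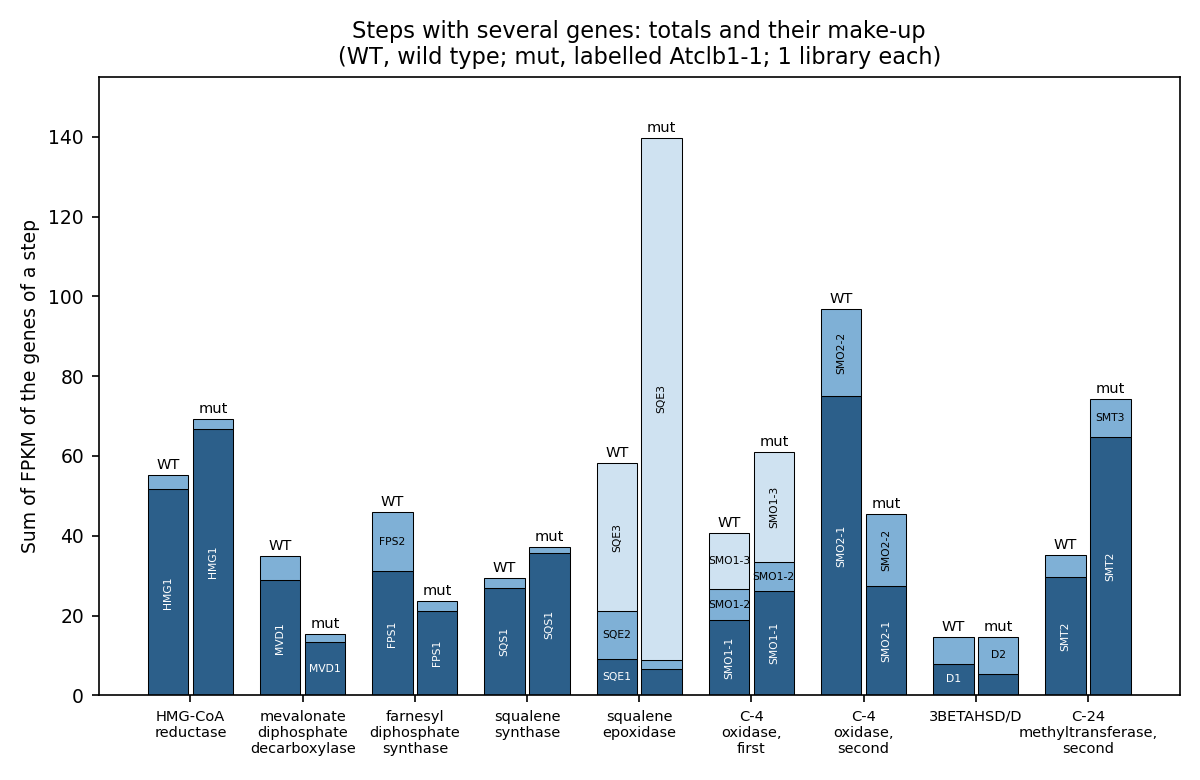
Summed FPKM of the 9 steps encoded by several of the 33 genes, stacked by gene (segments too small for a name are the other genes of the step), in wild type (left bar) and in the mutant library (right bar), with 1 library each. The squalene epoxidase bar goes from 58.4 to 140 FPKM through SQE3, and the second C-4 oxidase bar from 96.9 to 45.4 FPKM mainly through SMO2-1.

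In the sterol core 2 of 12 genes (16.7%) were at least 2-fold lower and none higher, against 10.8% and 17.2% of all tested loci. The median was -0.20 (-0.39 to -0.10 over the alternatives). This stage runs from the first side-chain methylation to the ring isomerase, but it also holds the second C-4 oxidases, which act after that isomerase. The medians of this stage and of the late steps depend on that placing. SMO2-1, an oxidase gene for removal of the second methyl group at carbon 4 of the ring (AT1G07420; TAIR10.1 chromosome 1, 2277555 to 2280502, plus strand), was at 74.9 FPKM in wild type against 27.5 FPKM in the mutant library, 2.72-fold lower. Its partner SMO2-2 was at 22 and 17.9 FPKM, and so went from 22.7% to 39.5% of the step. The coding sequences of the pair are identical at 85.8% of aligned bases. Their longest identical run is 43 nt, so reads could in part be divided between them. CPI1, the isomerase that opens the cyclopropane ring particular to plant sterol precursors, was at 10.4 and 4.0 FPKM, 2.61-fold lower. FK, the reductase after the carbon 14 demethylation, was at 9.04 and 4.95 FPKM, short of 2-fold.

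The other core genes lay within 2-fold, on both sides of 0. SMT1, the methyltransferase that acts on cycloartenol, was at 58.3 FPKM in wild type against 41.0 FPKM in the mutant library. Among the first C-4 oxidases SMO1-1 was at 18.8 and 26.2 FPKM, SMO1-2 at 7.79 and 7.12 FPKM, and SMO1-3 at 14 and 27.6 FPKM, a log2 difference of 0.93. The summed level of the first C-4 oxidases was 40.7 FPKM in wild type against 60.9 FPKM in the mutant library, and that of the second 96.9 and 45.4 FPKM. In wild type the second oxidases thus stood above the first, and in the mutant library the first above the second. 3BETAHSD/D1 and 3BETAHSD/D2, the dehydrogenases that complete removal of these methyl groups, were at 7.98 and 5.44 FPKM, and 6.76 and 9.23 FPKM, in turn, and their sum was 14.7 FPKM in both libraries. CYP51G1, the carbon 14 demethylase, was at 43.3 and 44.9 FPKM, and HYD1, the ring isomerase, at 53.7 and 59.9 FPKM.

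Late steps, which shape the side chain and finish the ring, gave the only stage median above 0, at 0.55. The 2-fold call was upward for 2 of 6 genes (33.3%) and downward for 1 (16.7%), against 17.2% and 10.8% of all tested loci. SMT2, whose second methylation directs flux to sitosterol, was at 29.7 FPKM in wild type against 64.8 FPKM in the mutant library, 2.18-fold higher. SMT3, its partner, was at 5.52 and 9.37 FPKM. DWF1, the side-chain reductase that yields campesterol and sitosterol (AT3G19820; TAIR10.1 chromosome 3, 6879524 to 6882315, minus strand), went the other way, at 37.3 FPKM in wild type against 12.0 FPKM in the mutant library. Of all tested loci 4.74% had a difference as low as its -1.56. DWF7 and DWF5, the desaturase and the reductase that set the final ring double bond, were at 15.7 and 16.5 FPKM, and 25.5 and 34.7 FPKM, in turn. CYP710A1, which makes stigmasterol from sitosterol, was at 0.302 and 3.73 FPKM. It passed the filter only through its mutant value, so its upward call follows in part from the filter. At its transcript length of 2245 nt the wild type value stands for roughly 10 fragments, so the ratio of 12.4 rests on few reads.

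Some of these values could include reads of other genes. Of the 32 genes matched in the annotation 8 overlap another gene, and the sources used here do not say whether the authors' quantification used strand. AACT2 overlaps AT5G48220 on the opposite strand, which itself was at 65.6 FPKM in wild type against 33.8 FPKM in the mutant library. DWF1 overlaps AT3G19810 on its own strand, at 23.9 and 19.0 FPKM. MVK overlaps AT5G27440 (0.990 and 0.968 FPKM) and AT5G27460 (4.53 and 6.86 FPKM) on the opposite strand, and neither was lower by 2-fold. FPS1 overlaps AT5G47760 (15.9 and 11.8 FPKM) on the opposite strand. SQS2 overlaps AT4G34660 there, whose 12.5 and 14.1 FPKM stand above those of SQS2. PMK overlaps AT1G31900 (1.85 and 3.12 FPKM) on its own strand and AT1G31920 (5.78 and 6.99 FPKM) on the other. Opposite-strand partners of MVD2 (AT3G54240, 0.0665 and 0.055 FPKM) and HYD1 (AT1G20060, 0.399 and 0.19 FPKM) were low. FPS2, SQE2, SQE3, SMO2-1, CPI1, SMT2, MVD1 and CYP710A1 overlap none.

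Counted by enzyme rather than by gene, 5 of 22 steps had a summed level at least 2-fold lower on the log2 scale. They were mevalonate kinase, mevalonate diphosphate decarboxylase, the second C-4 oxidase, the cyclopropyl isomerase and the DWF1 reductase. The 3 steps at least 2-fold higher were squalene epoxidase, the second side-chain methyltransferase and the CYP710A1 desaturase. CYP710A1 passed the filter only through its mutant value. Of all single tested loci 10.8% were lower and 17.2% higher. Only 9 of the steps have several genes, so these counts largely repeat the calls of single genes. Farnesyl diphosphate synthase, at 46.0 and 23.7 FPKM, fell just short with a difference of -0.93.

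Genes of the pathway outside the 33 included larger differences than any of the 33. Of 15 listed, 11 passed the filter, with a median of 0.02 (-0.18 to 0.12 over the pseudocount, scaling and trend alternatives). On the log2 scale with its pseudocount 4 of the 11 (36.4%) were past 2-fold upward and none downward. Of all tested loci 17.2% were higher and 10.8% lower. SQE5 and SQE6, relatives of the epoxidases that did not replace the enzyme in yeast, lie side by side with SQE4. SQE5 was at 14.5 FPKM in wild type against 236 FPKM in the mutant library, and SQE6 at 4.46 and 83.8 FPKM. CYP710A2, a further sterol desaturase, was at 0.655 and 3.46 FPKM, so it and CYP710A1 were both higher from low levels. LAS1, the lanosterol synthase gene, was the other one 2-fold higher, at 0.619 and 15.5 FPKM. LAS1 and CYP710A2 passed the filter only through their mutant values, so their calls follow in part from it. AACT1, a second thiolase gene, was at 10.9 and 5.37 FPKM, a log2 difference of -0.90. CAS1, the cycloartenol synthase between the epoxidases and SMT1, was at 27.2 and 27.7 FPKM. The isomerase genes IPP1 and IPP2 were at 36.6 and 29.9 FPKM, and 66.0 and 66.9 FPKM, in turn.

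Neighbouring pathways gave medians on both sides of 0. The plastid and brassinosteroid lists lay below it, also over the pseudocount, scaling and trend alternatives (-0.76 to -0.45 and -0.53 to -0.26, in turn). Sterol conjugation genes were below 0 as well (-0.42), and genes of protein prenylation and polyprenol synthesis above it (0.46, with 0.27 to 0.56 over these alternatives). The 7 genes of the plastid pathway to isopentenyl diphosphate had a median of -0.55, with MCT lower at 27.0 FPKM in wild type against 5.90 FPKM in the mutant library and HDR, its last enzyme, higher at 252 and 551 FPKM. Of 7 brassinosteroid synthesis genes 6 passed the filter, with a median of -0.35. ROT3, at 0.330 and 3.27 FPKM, was higher, but it passed the filter only through its mutant value. DWF4, a hydroxylase gene, was the lowest of the list at 7.43 and 3.22 FPKM, 2.31-fold lower as a plain ratio and just short of the call on the log2 scale. CPD, a further hydroxylase of that pathway, was at 57.6 and 31.4 FPKM. No difference between these lists and the 33 genes could be tested with 1 library per genotype.

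**Figure D5:**
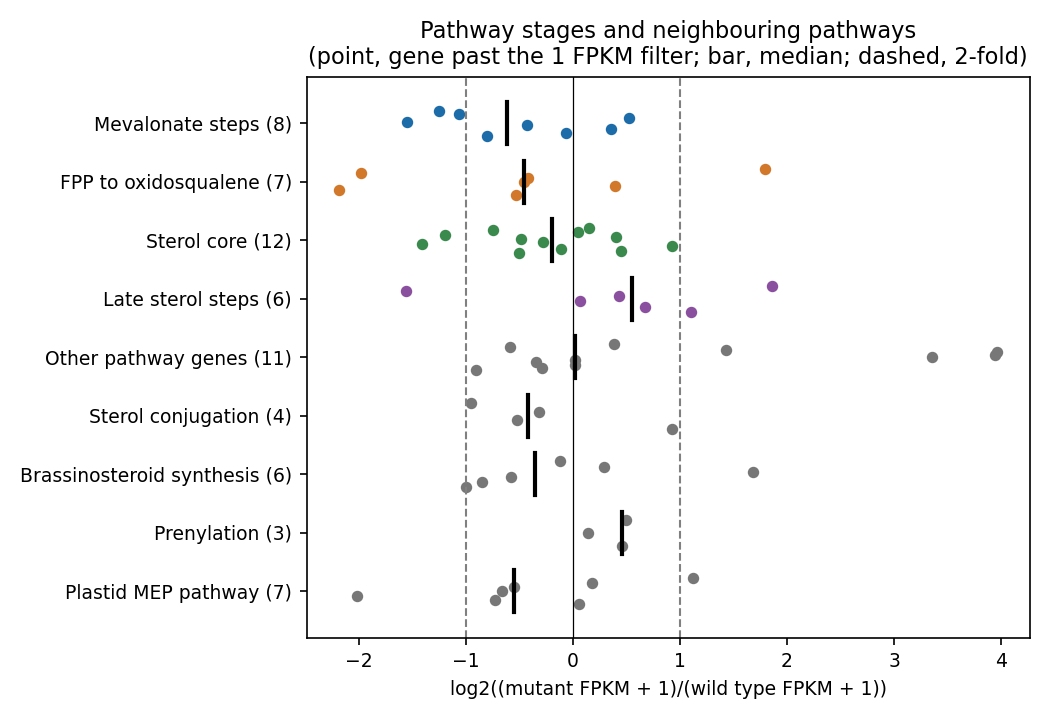
Log2 difference of each gene past the 1 FPKM filter, by stage of the pathway (coloured) and for neighbouring pathways (grey), with the median of each as a black bar and dashed lines at 2-fold. Medians of the stages go from -0.61 for the mevalonate steps to 0.55 for the late sterol steps, and SQE5, SQE6 and LAS1 lie above 3 among the other pathway genes.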

How the data were processed

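The deposited table gives FPKM per locus, made by the authors with 1 column per library, per the file headers. TopHat 1.3.2 and Cuffdiff with the TAIR10 build are named in the submitters' processing notes. The sources used here give no parameters, annotation release or filters. With pandas 2.3.3, the log2 ratio of mutant to wild type FPKM, each plus 1, was taken for the 18171 loci that reached 1 FPKM in either library, and counted from 2-fold. No p-value was computed, since each genotype has 1 library. Folds of single genes are plain FPKM ratios. The steps were tested on simulated data. Alternatives were pseudocounts of 0.1 and 5, 2 rescalings, a filter at 5 FPKM or none, a threshold of 4-fold, means, and removal of medians in 20 bins of transcript length and 10 of GC content. Steps of the low values put the depth near 14300000 to 15400000 fragments for wild type and near 16700000 to 18200000 for the mutant library, and counting intervals are not given. Names, coordinates and upstream sequence came from RefSeq TAIR10.1, in which 32 of the 33 genes were matched. Its transcript lengths may differ from those the authors used. Members and lists were chosen with earlier results of these data known. All 33 genes were to be named, and of each other list those at least 2-fold apart, at most 4. Other list members were named after their values were seen.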

Additional observations from a re-analysis of the deposited data

How the results depend on the processing

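The number of genes at least 2-fold lower was 8 in the main setting, 4 with a pseudocount of 5, and 1 at a 4-fold threshold, and between 7 and 9 under the other alternatives. The number at least 2-fold higher was 3, 0 at a 4-fold threshold, and between 2 and 4 under the other alternatives. Lower and higher shares of all tested loci moved too, from 10.8% and 17.2% in the main setting. They were 13.6% and 20.8% with a pseudocount of 0.1, and 5.82% and 9.76% with 5. Setting the median ratio of well-expressed loci to 0 gave 13.5% and 13.9%, and the same nuclear FPKM total 9.67% and 19.6%. Length and GC correction gave 13.7% and 13.2%, a filter at 5 FPKM 10.6% and 17.8%, no filter 5.83% and 9.31%, and 4-fold 2.64% and 5.29%. The median of -0.28 became -0.29 with a pseudocount of 0.1, -0.19 with a pseudocount of 5, -0.47 once the median ratio of well-expressed loci was set to 0 (a shift of 0.21), -0.18 with the same nuclear FPKM total, -0.20 with a filter at 5 FPKM and -0.45 after correction for transcript length and GC content. The mean was -0.24. By stage the median lay between -0.90 and -0.42 for the mevalonate steps, -0.65 and -0.29 from farnesyl diphosphate to oxidosqualene, -0.39 and -0.10 for the sterol core, and 0.36 and 0.65 for the late steps, over all these alternatives. FPS2, SQE2, SQE3, SMO2-1 and DWF1 stayed past 2-fold under the 5 pseudocount, scaling and trend alternatives. MVK, MVD1, MVD2, CPI1 and CYP710A1 lost the call with a pseudocount of 5, MVD1 also with the same nuclear total (-0.97), and SMT2 once the median ratio was set to 0 (0.90). AACT2 gained it after the length and GC correction (-1.06) and SMO1-3 with the same nuclear total (1.03). HMGS, HMG1, PMK, CYP51G1, HYD1 and DWF7 changed sign under some alternative, and none of these was past 2-fold. No paired analysis was possible because each genotype has 1 library. Depth limits CYP710A1 in wild type most.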

Other observations

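Among genes that use sterols further on, the 4 sterol conjugation genes had a median of -0.42, and none reached the 2-fold call on the log2 scale with its pseudocount, although 2 were past 2-fold as plain FPKM ratios. ASAT1, a sterol acyltransferase gene, was at 2.19 FPKM in wild type against 5.06 FPKM in the mutant library, 2.31-fold higher, and UGT80B1, a sterol glucosyltransferase gene, at 26.7 and 13.3 FPKM, 2.01-fold lower. Of 4 genes of protein prenylation and polyprenol synthesis 3 passed the filter, with a median of 0.46. ERA1, a farnesyltransferase subunit gene, was at 8.69 and 12.3 FPKM, and STE24, a protease gene for prenylated proteins, at 33.2 and 47.4 FPKM.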
